A study of Emberiza melanocephala with 4 samples.

Results

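The libraries labelled LD liver and LD hypothalamus were set side by side, gene by gene, over every gene to which the deposited assemblies give a symbol. LD stands for long day and SD for short day, as in the sample titles, and each title names 1 library. LD hypothalamus listed 126 genes with a symbol and LD liver 183, which makes 235 genes in the pair out of 278 over all 4 libraries of the series. Of these 235, 74 were listed in both long-day libraries, 52 only in LD hypothalamus and 109 only in LD liver. All birds were wild-caught black-headed buntings (Emberiza melanocephala), a migratory songbird. The sources used here give no age, number of birds or pooling. The other libraries are SD hypothalamus and SD liver, and no group has a replicate, so every difference stands without an error or a test. The recorded seasonal state of LD hypothalamus is short day, against its title, and that of SD liver is long day. Groups follow the titles.

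The hypothalamus is the part of the forebrain that sets feeding, body temperature and reproduction, and in birds it holds the machinery that reads day length. Its neurons release transmitter from synaptic vesicles, hold their excitability with potassium channels and are wired by adhesion proteins of the cell surface. The liver is the main source of plasma proteins and the main site of lipid, sugar and amino acid metabolism. Hepatocyte transcripts, such as those of albumin and apolipoproteins, therefore usually dominate its RNA. RNA of these tissues is thus readily told apart by marker genes.

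Sequence was sparse. The aligned sequence came to 13.3 megabases in LD hypothalamus and 17.8 in LD liver, and genes with a symbol held 1.42% and 1.88% of it. FPKM, the deposited level, is the mean coverage over a transcript scaled to the aligned sequence of the library, and it can be compared between genes. The mean coverage of a named gene had a median of 0.36 in LD hypothalamus and 0.46 in LD liver, so many genes rest on a few reads. A gene that a library does not list has no value there. Its level is unknown and was not set to 0 except where stated. Read counts were not analysed here, so the aligned bases on a gene are given as the depth behind its value.

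Brain genes were listed in both long-day libraries and liver genes in almost neither. Of 274 genes on 10 brain lists, 27 were listed in LD hypothalamus and 32 in LD liver, which is 21.4% and 17.5% of the named genes of these libraries. Their levels summed to 1383 FPKM in the former and 1879 FPKM in the latter. Of 161 genes on 5 liver lists, none was listed in LD hypothalamus and 1 in LD liver, APOA1, the chief apolipoprotein of HDL particles, at 20.9 FPKM. Albumin, the fibrinogen chains, transferrin, the apolipoproteins other than APOA1 and the lipid synthesis genes of these lists were not listed in either library. The label LD liver therefore goes against the marker genes, and the library is called by its label only.

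The short-day libraries looked otherwise on the same lists. SD hypothalamus listed 0 of the brain genes and 2 of the liver genes, which is 0% and 5.88% of its 34 named genes. SD liver listed 1 and 5, which is 1.61% and 8.06% of its 62. With unnamed assembled transcripts that overlap a gene's exons counted as that gene, the brain lists held 28 genes in LD hypothalamus and 34 in LD liver, and the liver lists 0 and 1. Counted that way, SD liver listed 6 liver genes, APOA1 at 655 FPKM among them, and SD hypothalamus listed APOA1 too, at 327 FPKM. Both are above the 20.9 FPKM of LD liver. The S-adenosylhomocysteine hydrolase AHCY, at 65.1 FPKM in SD liver, was listed in neither long-day library. The lists were drawn up with earlier results of these data known, so these counts are a description.

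**Figure D1:**
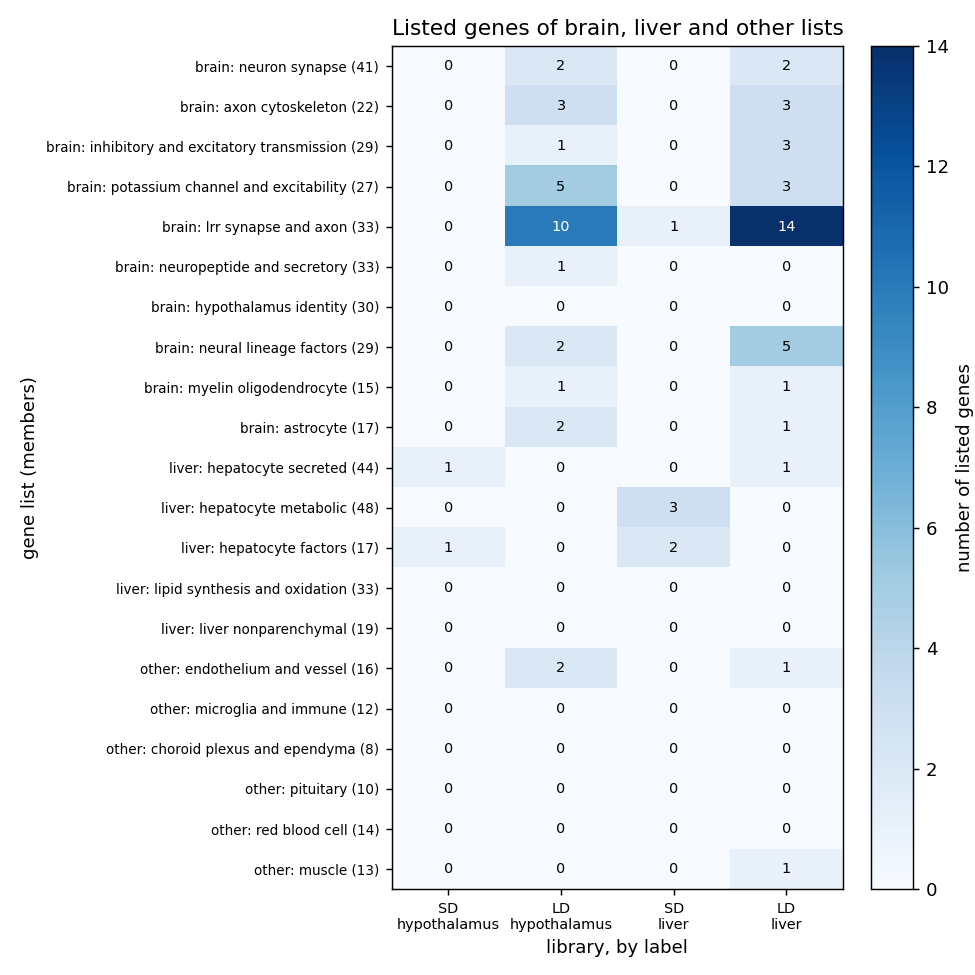
Number of genes of each brain, liver and other cell type list (rows, list size in brackets) that carry a symbol in each of the 4 libraries (columns, by label). LD hypothalamus and LD liver hold listed brain genes, 10 and 14 of them on the list of leucine-rich-repeat synapse proteins, and the 30 genes of hypothalamus identity are listed in no library.

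Markers that would place the sequence in the hypothalamus itself were listed in neither library. Over all brain lists, 9.85% of the members were listed in LD hypothalamus and 11.7% in LD liver. An unlisted gene has no value, so this lack cannot tell whether the sequence came from the hypothalamus. None of the 30 genes on the list of hypothalamus identity, which holds developmental regulators such as SIM1, OTP and NKX2-1 and the photoperiodic enzymes DIO2 and DIO3, was listed. Of 33 neuropeptide and secretory genes, CPE alone was listed by symbol, in LD hypothalamus, and LD liver held unnamed transcripts over its exons. Lists of microglia, choroid plexus, pituitary and red blood cells had no listed member in either library. The muscle list had PVALB in LD liver, a calcium buffer that fast-spiking neurons also make. The transcription factors NEUROD1 and ZBTB18, both known from developing neurons, stood in both libraries.

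Levels of the 74 shared genes ran in much the same order in both libraries. Across these genes the Spearman correlation of FPKM was 0.76 and the Pearson correlation of log2(FPKM + 1) was 0.76, as a description over genes, which are not replicates. Over the 21 shared genes of the brain lists these correlations were 0.60 and 0.77, and over the other 53 genes 0.81 and 0.76. Both libraries were measured on the same reference transcripts at 73 of the 74 genes, so transcript length is common to the points. The median FPKM of shared genes was 37.8 in LD hypothalamus and 39.4 in LD liver, and the median log2 ratio of LD liver over LD hypothalamus, on FPKM + 1, was 0.09. Of the 10 shared genes highest in one library, 9 were among the 10 highest in the other, and of the 20 highest, 16. In the short-day pair, where 13 genes were shared, the Spearman correlation was 0.86. It was 0.77 between LD hypothalamus and SD liver (14 genes), as high as in the long-day pair. It was 0.52 between LD and SD liver (23 genes), 0.28 between SD hypothalamus and LD liver (22 genes) and 0.21 between LD and SD hypothalamus (10 genes).

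**Figure D2:**
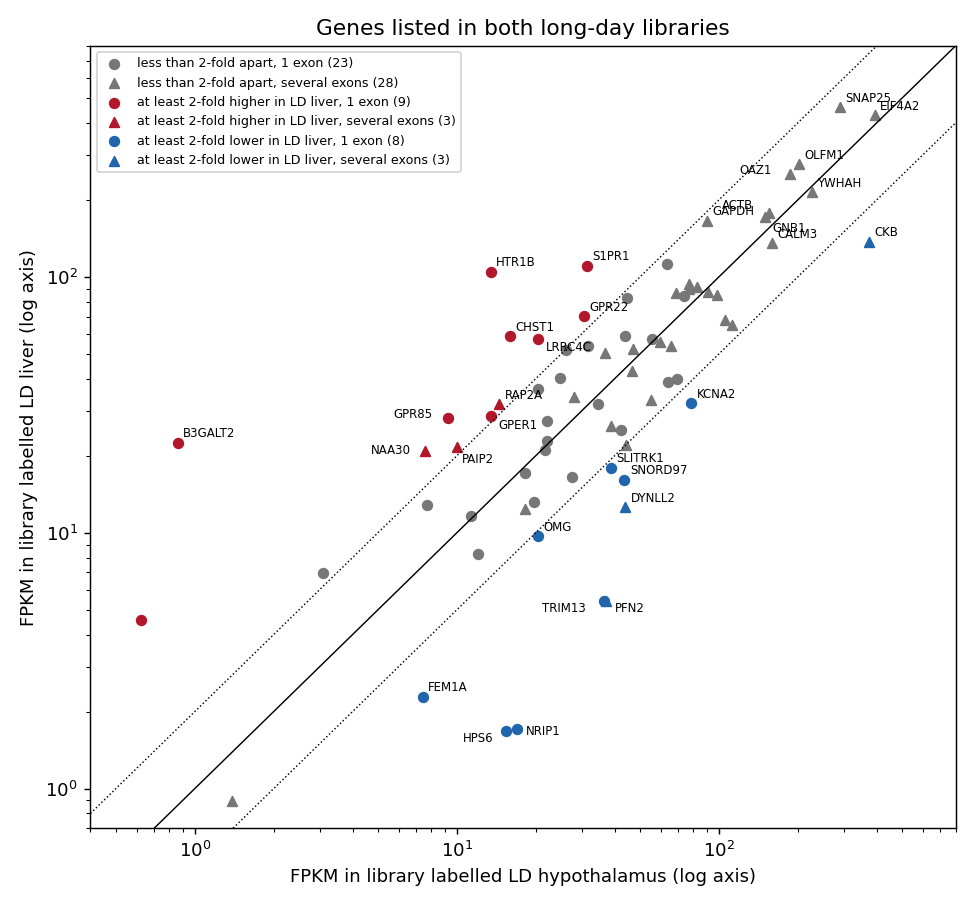
FPKM of the 74 genes listed in both long-day libraries, with LD hypothalamus on the horizontal and LD liver on the vertical log axis. The solid line marks equal levels and the dotted lines 2-fold differences, circles have 1 exon and triangles several. Genes of several exons lie near the solid line, with PFN2, DYNLL2, CKB, NAA30, PAIP2 and RAP2A at least 2-fold away on the FPKM + 1 scale.

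Of the 74 genes, 23 (31.1%) were at least 2-fold apart, 12 (16.2%) higher and 11 (14.9%) lower in LD liver, and 51 lay within 2-fold. The genes with the most sequence lay closest together. Genes were ordered by the aligned bases in the library that had fewer. A gene low in either library thus falls among those with little sequence, and part of the contrast is built in. In the 26 genes with the most aligned bases in the poorer library (1098 or more) the Spearman correlation was 0.82, 25 of the 26 lay within 2-fold and the median absolute log2 ratio was 0.26. In the 24 genes with the fewest (5 to 328 bases), it was 0.30, 13 were at least 2-fold apart and the median absolute log2 ratio was 1.02. The 24 genes between them (378 to 1045 bases) had a correlation of 0.34, close to that of the lowest, with 15 within 2-fold and a median absolute log2 ratio of 0.73. Genes with several exons had a correlation of 0.92 (34 genes, 28 within 2-fold), and single-exon genes 0.54 (40 genes, 23 within 2-fold). Exon number moves together with depth here, since the median of aligned bases in the poorer library was 3103 for the former and 353 for the latter. Which of these goes with the spread was not tested.

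**Figure D3:**
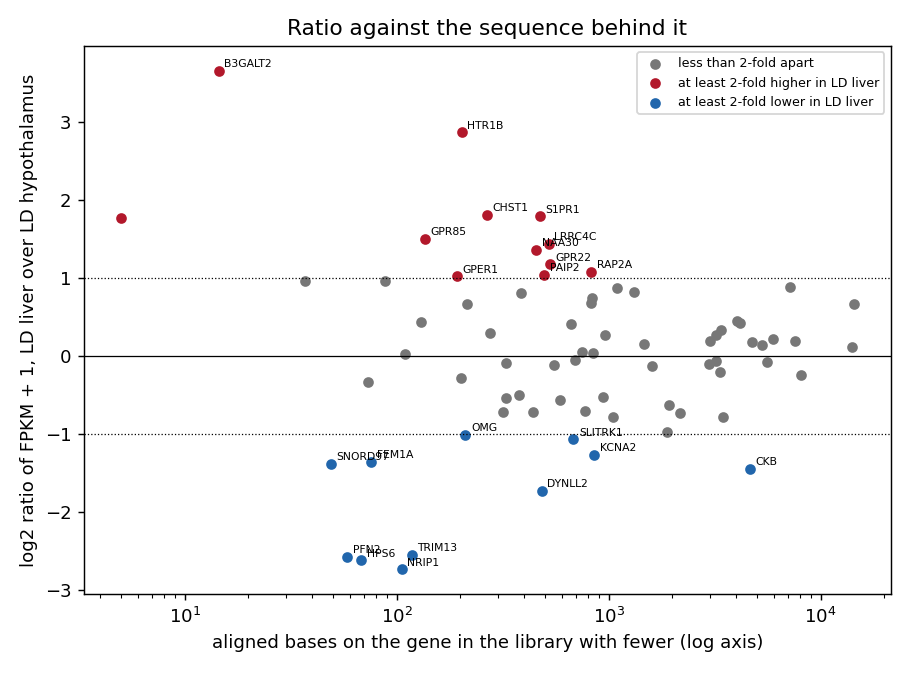
Log2 ratio of FPKM + 1, LD liver over LD hypothalamus, of each shared gene (vertical) against the aligned bases on it in the library that has fewer (horizontal, log axis). Dotted lines mark 2-fold differences. The largest ratios stand at the left, where B3GALT2 rests on 14 bases, and CKB is the one gene beyond 2-fold among the 26 with the most sequence. A gene low in either library has few bases there, so part of this pattern is built in.

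In the following account, a pair of FPKM values gives LD hypothalamus first and LD liver second, and a ratio is the log2 ratio of FPKM + 1, LD liver over LD hypothalamus. Genes of the synaptic terminal and of growing axons were within 2-fold at all 4 shared members, beside 51 of 74 over all shared genes. These are few: each library listed 2 of 41 genes on the neuron and synapse list and 3 of 22 on the axon list. SNAP25, the membrane-fusion protein of synaptic vesicles, had 290.2 and 462 FPKM at a ratio of 0.67 (scaffold JH603274.1, 2338212 to 2404309, minus strand of the flycatcher build, 8 exons). It was the highest named gene of LD liver and the third of LD hypothalamus. OLFM1, a secreted glycoprotein of neurons, had 201 and 277 FPKM (0.45). LD hypothalamus listed 2 transcripts of OLFM1 and LD liver 1, and on the common transcript the ratio was 1.11. The axon growth proteins GAP43 and BASP1 had 38.8 and 26.1 FPKM (-0.56) and 11.4 and 11.7 FPKM (0.03). BASP1 rests on 110 aligned bases in LD hypothalamus.

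Leucine-rich-repeat proteins of the neuronal surface, which guide synapse formation and axon growth, made the largest shared group of brain genes. Of the 33 on the list, 10 were listed in LD hypothalamus and 14 in LD liver, and all 10 of the former were among the latter. LRRTM1, an organiser of excitatory synapses, had 63.1 and 112 FPKM (0.82). LINGO1, a partner of the Nogo receptor that restrains axon growth, had 44.5 and 82.6 FPKM (0.88). LRRC4C, the netrin-G1 ligand, was the one member at least 2-fold higher in LD liver, with 20.5 and 57.5 FPKM (1.44). All 3 were higher in LD liver, on 521 or more aligned bases in each library. FLRT2, a ligand of latrophilins, had 31.6 and 53.8 FPKM (0.75), and LRRN1 had 3.08 and 6.95 FPKM (0.96) on 88 bases in LD hypothalamus.

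The SLITRK family, which shapes neurites and synapses, did not move one way. SLITRK1 was lower in LD liver, with 38.7 and 17.98 FPKM (-1.06), and SLITRK4 had 24.7 and 40.2 FPKM (0.68). SLITRK2 was almost level at 22.01 and 22.9 FPKM. ELFN2, which regulates metabotropic glutamate receptors across the synapse, was level too, at 21.7 and 21.01 FPKM. OMG, a myelin glycoprotein that halts axon growth, had 20.5 and 9.68 FPKM (-1.01), just past 2-fold, and the protocadherin PCDH9 had 73.4 and 83.9 FPKM (0.19). Over these 10 list members and PCDH9 the median ratio was 0.68, beside 0.09 over all shared genes. Of the 11 ratios, 8 were above 0, beside 40 of 74 over all shared genes. All 11 are single-exon genes, and the 40 shared single-exon genes had a median ratio of 0.12.

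**Figure D4:**
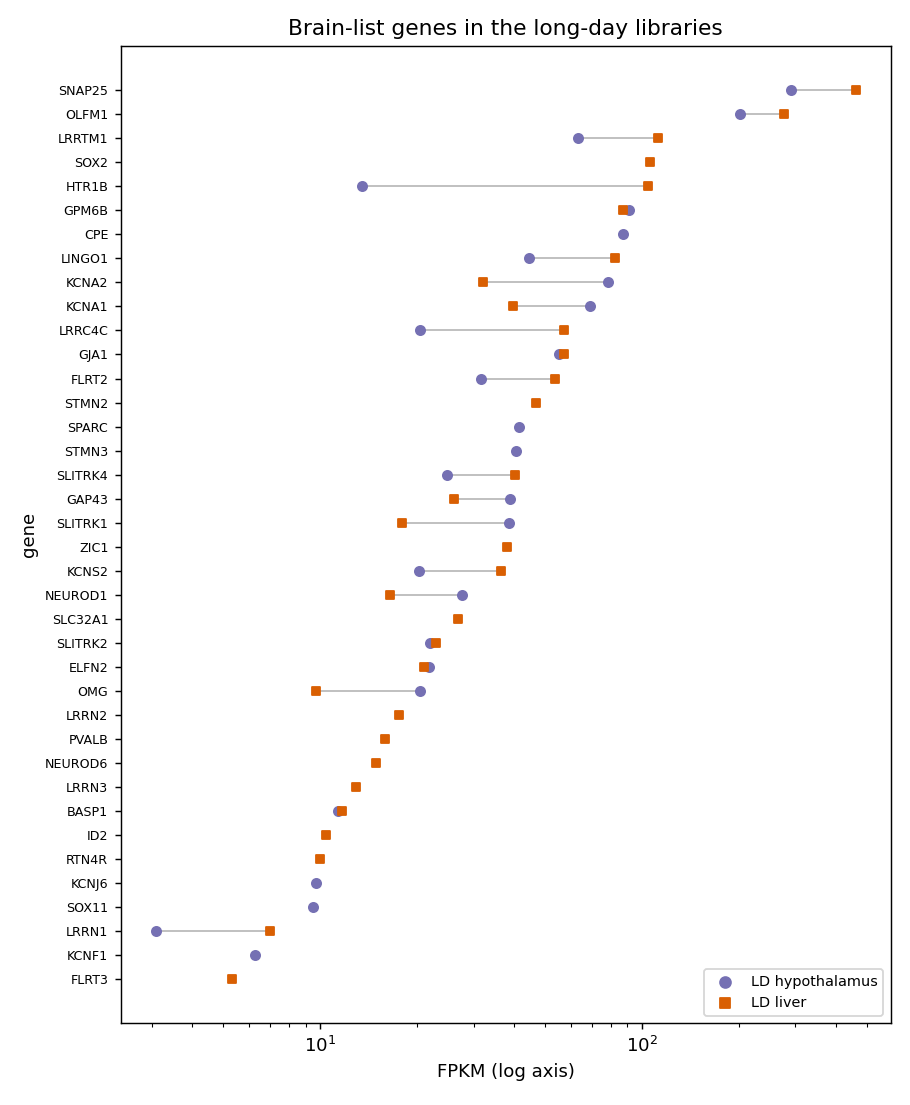
FPKM (horizontal, log axis) of every gene of the 10 brain lists that has a symbol in a long-day library, with LD hypothalamus as circles and LD liver as squares. A grey line joins a gene listed in both, and a lone point is a gene that the other library does not list under its symbol. SNAP25 and OLFM1 lead in both libraries, and HTR1B has the widest gap.

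Potassium channels set how readily neurons fire. KCNA2 and KCNA1, voltage-gated channels of axons, had 78.5 and 32.05 FPKM (-1.27) and 68.9 and 39.8 FPKM (-0.78), with KCNA2 past 2-fold lower in LD liver. KCNS2, a modifying subunit that does not form channels alone, leaned the other way with 20.3 and 36.4 FPKM (0.81). LRRC8D, which helps form the anion channel that responds to cell swelling, had 12.1 and 8.28 FPKM (-0.49). All 4 are single-exon features of the annotation. KCNJ6, a channel opened by G proteins, and KCNF1 were listed in LD hypothalamus only (9.68 and 6.28 FPKM), as was KCNJ11 of the ATP-sensitive channel (20.6 FPKM), and FGF12, a regulator of sodium channels, in LD liver only (57.2 FPKM).

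Receptors coupled to G proteins held the widest gap among brain-list genes. HTR1B, a serotonin receptor that damps transmitter release, had 13.5 and 105 FPKM (2.87; scaffold JH603208.1, 1176522 to 1177655, minus strand, 1 exon), on 202 and 2111 aligned bases. S1PR1, the sphingosine-1-phosphate receptor of endothelium, had 31.3 and 111 FPKM (1.79). Other receptors were past 2-fold in the same direction. GPR85, an orphan receptor of brain, had 9.25 and 28.04 FPKM (1.502), GPR22 had 30.5 and 70.3 FPKM (1.18), and the oestrogen receptor GPER1 had 13.5 and 28.6 FPKM (1.02). GPER1 lost its place past 2-fold after centring on the median. With a pseudocount of 10, GPR85 (0.98), GPR22 (0.99) and GPER1 (0.71) were within 2-fold, while HTR1B (2.29) and S1PR1 (1.55) were not. The somatostatin receptor SSTR1, at 43.8 and 58.6 FPKM (0.41), the adrenergic receptor ADRA2C, at 18.3 and 17.1 FPKM (-0.09), and the G-protein subunit GNB1, at 149.8 and 171 FPKM (0.19), were within 2-fold. In all, 5 of these 8 genes were at least 2-fold higher in LD liver and none lower, with a median ratio of 1.10, beside 12 of 74 over all shared genes. GNB1, the one of them with several exons, rests on 4757 or more bases, and the 5 past 2-fold on 137 to 527 bases in LD hypothalamus.

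Receptors and G proteins made up 15 of the 161 genes listed once (9.32%), near their share of all 235 genes (9.79%). LD liver alone listed the purine receptor P2RY1 (71.2 FPKM), the orphan receptors GPR27 (56.03 FPKM) and GPR12 (8.56 FPKM), and the muscarinic receptors CHRM5 (45.7 FPKM) and CHRM3 (16.7 FPKM). It also listed the dopamine receptor DRD1 (10.4 FPKM), S1PR3 (12.8 FPKM), FZD1 (6.54 FPKM), ADRA1D (5.18 FPKM) and the G-protein subunits GNAQ (42.4 FPKM) and GNA11 (14.9 FPKM). DRD1 is known above all from neurons of the striatum in mammals. LD hypothalamus alone listed GPR63 (18.6 FPKM), the serotonin receptor HTR1F (16.8 FPKM) and the somatostatin receptor SSTR3 (2.94 FPKM). That makes 12 genes of this class in LD liver alone and 3 in LD hypothalamus alone, in libraries that alone listed 109 and 52 genes.

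The shared glial genes, GPM6B and GJA1, were close to level. They were the only shared members of lists of 15 myelin and 17 astrocyte genes. GPM6B, a membrane protein of myelin and neurons, had 91.2 and 87.1 FPKM (-0.07), and GJA1, connexin 43 of astrocytes, had 55.4 and 57.2 FPKM (0.04). CLDN5, the tight-junction protein of brain endothelium, was listed in LD hypothalamus (13.9 FPKM) and not in LD liver, which listed CLDN12 (26.7 FPKM). SPARC, a matrix glycoprotein of astrocytes and vessels, carried its symbol only in LD hypothalamus (41.5 FPKM), where 1756 bases is its longest transcript. LD liver held an unnamed transcript of 815 bases over its exons at 244 FPKM. Counted as SPARC, it gave a ratio of 2.53, and of 1.45 on aligned bases.

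Calcium sensors, 14-3-3 proteins and phosphatases had 8 shared members. By symbol all 8 lay within 2-fold, between -0.78 and 0.28, beside 51 of 74 over all shared genes. All but PKIA (201 bases in LD hypothalamus) rest on 2181 or more aligned bases in each library. They are thus among the 26 shared genes with the most sequence, of which 25 lay within 2-fold. The 14-3-3 proteins, adaptors that bind phosphorylated partners, had 226 and 215 FPKM for YWHAH, 98.1 and 85.2 FPKM for YWHAZ, 77.1 and 89.8 FPKM for YWHAQ and 76.99 and 93.6 FPKM for YWHAE. YWHAB was listed only in LD hypothalamus (79.2 FPKM). The family members are alike in sequence and may share reads. CALM3, which encodes calmodulin, had 160.1 and 136 FPKM (-0.24), but LD liver also held an unnamed transcript over its exons, and with it CALM3 stood at 346 FPKM and a ratio of 1.11. The phosphatases PTP4A1 and PPP1CB had 112 and 64.9 FPKM (-0.78) and 55.3 and 33.1 FPKM (-0.72), and PKIA, an inhibitor of protein kinase A, had 65.5 and 53.9 FPKM (-0.28).

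Actin and microtubule genes leaned towards LD hypothalamus, with 5 of 6 ratios below 0 and a median of -0.80, beside 34 of 74 and 0.09 over all shared genes. ACTB, cytoskeletal actin, was the exception at 156 and 178 FPKM (0.19). PFN2, a profilin of neurons, had 37.000 and 5.401 FPKM (-2.57), and the dynein light chain DYNLL2 had 43.9 and 12.6 FPKM (-1.73). PFN2 rests on 58 aligned bases in LD liver and DYNLL2 on 484. The actin-severing proteins DSTN and CFL2 had 44.2 and 22.1 FPKM (-0.97) and 18.2 and 12.4 FPKM (-0.52), and the tubulin TUBA1C had 105 and 68.1 FPKM (-0.62). ACTG1, a near-identical actin, was listed in LD liver only (32.01 FPKM), and reads of both actins may have been split between them.

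**Figure D5:**
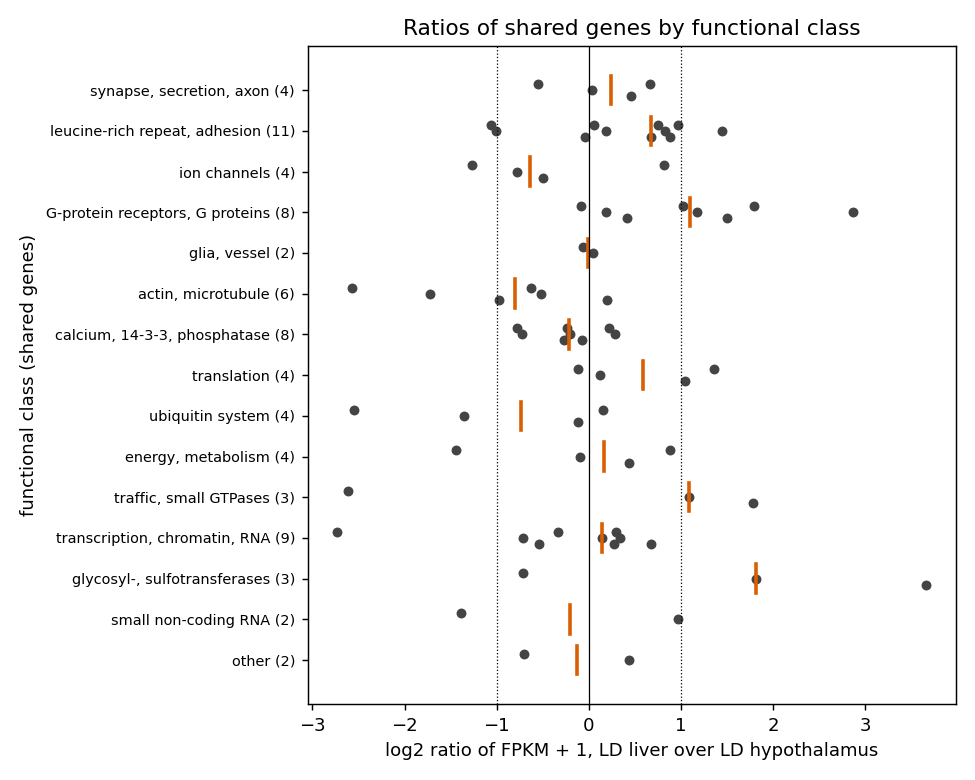
Log2 ratio of FPKM + 1, LD liver over LD hypothalamus, of each of the 74 shared genes (points), arranged by functional class with the number of shared genes in brackets. Orange bars are class medians and dotted lines mark 2-fold differences. All but PKIA of the 8 calcium, 14-3-3 and phosphatase genes are among the 26 genes with the most sequence. These 8 genes all lie between the dotted lines, as do 51 of all 74 genes. To the right of these lines lie 5 of the 8 receptor and G-protein genes, as do 12 of all 74.

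Genes of general cell upkeep were among the highest of both libraries. EIF4A2, an RNA helicase of translation initiation, led LD hypothalamus and was second in LD liver, with 394 and 429.6 FPKM (0.12; scaffold JH603178.1, 11100757 to 11109425, plus strand, 11 exons). OAZ1, which restrains polyamine synthesis, had 187 and 253 FPKM (0.43), and GAPDH of glycolysis had 89.8 and 166 FPKM (0.88). SLC25A6, the mitochondrial ADP/ATP carrier, was level at 59.5 and 55.6 FPKM. CKB, the creatine kinase of brain, was the second gene of LD hypothalamus and had 375 and 137 FPKM (-1.44). LD liver also held an unnamed transcript over its exons, with which CKB came to 366 FPKM and a ratio of -0.03, so its place past 2-fold turns on that transcript. Of translation genes, PAIP2, a repressor that binds the poly(A)-binding protein, had 9.99 and 21.7 FPKM (1.05), the acetyltransferase NAA30 had 7.53 and 20.9 FPKM (1.36) and BTF3L4 had 46.8 and 42.9 FPKM (-0.12).

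Nuclear genes were within 2-fold at 8 of 9 shared members, beside 51 of 74 over all shared genes, with NRIP1 the exception. The co-repressor NRIP1, which binds nuclear receptors, had the lowest ratio of all, -2.73, at 16.999 and 1.71 FPKM (scaffold JH603215.1, 4710628 to 4714116, plus strand, 1 exon), on 787 and 106 aligned bases. It was also lower in SD liver than in SD hypothalamus, with 1.09 against 7.62 FPKM. The 13 genes shared by that pair had a median ratio of -0.82. ZBTB18, a repressor needed for cortical neurons, had 82.3 and 91.3 FPKM (0.15), and NEUROD1, a factor of neuronal differentiation, had 27.6 and 16.5 FPKM (-0.71). The helicase DDX5 had 68.4 and 86.6 FPKM (0.34), the histone gene H3F3A had 27.96 and 33.9 FPKM (0.27), and ZFP36L1, which speeds mRNA decay, had 22.1 and 27.3 FPKM (0.29). ZBTB43, RBM12B and ZBTB14 had ratios of -0.54, 0.67 and -0.33, the last on 73 bases in LD liver.

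The remaining shared genes held the other extremes, mostly on little sequence. B3GALT2, a glycosyltransferase, had the highest ratio of all, 3.66, at 0.861 and 22.5 FPKM on 14 bases in LD hypothalamus, while its relative B3GALT1 had 42.3 and 25.3 FPKM (-0.72). CHST1, a sulfotransferase of keratan sulfate, had 15.97 and 58.5 FPKM (1.81). HPS6, which takes part in forming lysosome-related organelles, and the ubiquitin ligase TRIM13 were lower in LD liver, with 15.4 and 1.68 FPKM (-2.62) and 36.4 and 5.41 FPKM (-2.54), on 68 and 118 bases there. FEM1A, a substrate receptor of ubiquitin ligases, had 7.42 and 2.29 FPKM (-1.36), and FBXL14 and UBL3 were within 2-fold at -0.12 and 0.16. The small GTPase RAP2A had 14.5 and 31.9 FPKM (1.08). The small RNAs SNORD97 and U6 had 43.6 and 16.1 FPKM and 26.1 and 51.9 FPKM, and FAM110B and FAM32A were within 2-fold at -0.71 and 0.44. Of the 23 genes past 2-fold, 9 had fewer than 150 aligned bases in one of the libraries, beside 14 of all 74 shared genes. A gene low in either library has few bases there, so part of this is built in.

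Genes listed in LD hypothalamus alone numbered 52, at 2.56 to 87.3 FPKM and a median of 21.996, and 10 of them were above the median of the shared genes in that library. CPE, which trims peptide hormones and neuropeptides, led with 87.3 FPKM (scaffold JH603205.1, 794509 to 851492, plus strand, 9 exons). LD liver held 2 unnamed transcripts over the exons of CPE at 348 FPKM together, so the gene is missing there by symbol alone. After YWHAB came the recycling GTPase RAB11A (64.4 FPKM), the ubiquitin-conjugating enzymes UBE2D3 (54.4 FPKM) and UBE2QL1 (49.2 FPKM), and RAB1A of transport to the Golgi (42.3 FPKM). AMD1, an enzyme of polyamine synthesis (40.8 FPKM), and STMN3, a tubulin-binding protein of neurons (40.6 FPKM), had similar levels, as had RAP2C (37.6 FPKM) and the secreted FIBIN (41.8 FPKM).

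Further genes of LD hypothalamus alone included the clock repressor BHLHE40 (35.005 FPKM), the ribosomal protein RPS3 (27.8 FPKM) and the chaperone HSPA2 (21.8 FPKM). NENF, a secreted neurotrophic factor (31.9 FPKM), and NKAIN2, a partner of the sodium pump (16.1 FPKM), belonged there too. SOX11, a factor of immature neurons, had 9.51 FPKM, and ARC, which neuronal activity induces, had 5.58 FPKM on 90 bases. The ubiquitin system had 7 genes in this set (13.5%, beside 6.81% of all 235 genes), and transcription and RNA had 8 (15.4%, beside 19.1%). The leucine-rich-repeat and adhesion class had no gene in it, beside 6.38% of all 235 genes. A short-day library listed 5 of the 52, beside 14 of the 74 shared genes and 21 of the 109 of LD liver alone.

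Genes listed in LD liver alone numbered 109, at 1.403 to 209 FPKM and a median of 21.3, and 28 of them were above the median of the shared genes in that library. ATP6V1C1, a subunit of the vesicle proton pump, led with 209 FPKM. LD hypothalamus held an unnamed transcript over its exons at 224 FPKM, so here too sequence over the exons was listed without the symbol. RAB11B, a GTPase of recycling vesicles, had 126 FPKM. LD hypothalamus held no unnamed transcript over its exons. Unnamed transcripts were listed only from a coverage of 2.50 up, and RAB11B had a coverage of 2.24 in LD liver. A level as high in LD hypothalamus could thus have gone unlisted as an unnamed transcript.

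The neural genes of this set included transcription factors, vesicle proteins and cell-surface proteins. SOX2, a factor of neural progenitors and glia, had 106 FPKM (scaffold JH603178.1, 11844687 to 11845634, minus strand, 1 exon), and ZIC1, a factor of dorsal brain and cerebellum, had 38.1 FPKM. STMN2, a tubulin-binding protein of axons, had 46.9 FPKM, and SLC32A1, which loads GABA and glycine into synaptic vesicles, had 26.8 FPKM (scaffold JH603233.1, 3247152 to 3250740, plus strand, 2 exons). APBA2, an adaptor of presynaptic terminals, had 43.7 FPKM, and SCAMP5 of secretory vesicles had 27.03 FPKM. NEUROD6, a factor of cortical projection neurons in mammals, had 14.9 FPKM, ID2 had 10.4 FPKM and RTN4R, the Nogo receptor, had 9.99 FPKM. The leucine-rich-repeat proteins LRRN2, LRRN3 and FLRT3 had 17.5, 12.9 and 5.31 FPKM. PVALB had 15.9 FPKM on a transcript of 3048 bases, while LD hypothalamus held an unnamed transcript of 488 bases over its exons at 205 FPKM.

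Membrane traffic and small GTPases gave 16 of the 109 genes to this set (14.7%) and 5 of the 52 to that of LD hypothalamus (9.62%), beside 10.2% of all 235 genes. They included DIRAS1 (76.1 FPKM), a GTPase of brain, VAPB of contacts with the endoplasmic reticulum (68.5 FPKM), RAB5A of early endosomes (58.5 FPKM) and ARF6 (48.8 FPKM). Transcription, chromatin and RNA gave 28 (25.7%), beside 19.1% of all 235 genes. Among the highest were the histone gene HIST2H2AB (111 FPKM), the RNA-binding protein TARDBP (56.5 FPKM), CEBPG (43.9 FPKM) and ZBTB42 (41.5 FPKM). The translation factors EIF5 and EIF4G2 had 92.2 and 31.4 FPKM, and LD hypothalamus held an unnamed transcript over EIF4G2 at 269.99 FPKM. UBE2K, a ubiquitin-conjugating enzyme, had 30.1 FPKM and in LD hypothalamus an unnamed transcript at 220.3 FPKM. Other members near the top were TRAF3 of immune signalling (55.5 FPKM), NUDT3 (52.1 FPKM), C6orf62 (123 FPKM) and FAXC (83.8 FPKM).

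Metabolic genes of this set were 9 (8.26%, beside 6.81% of all 235 genes), and APOA1 was the one of them on a liver list. Beside APOA1, on 587 bases, they were the cytosolic malate dehydrogenase MDH1 (30.9 FPKM), triosephosphate isomerase TPI1 (22.6 FPKM), the glutamate carrier SLC25A22 (43.7 FPKM), the desaturase SCD5 (41.9 FPKM), which mammals express in brain, and GGPS1, DOLK, NUDT3 and MID1IP1. The clock repressor NFIL3 had 3.93 FPKM on 96 bases. APOA1, MDH1, TPI1 and NFIL3 were listed in short-day libraries as well, and 21 of the 109 genes were, beside 14 of the 74 shared genes.

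Over both sets, 6 of the 161 genes listed once by symbol had an unnamed transcript over their exons in the other library, and 155 had none. Unnamed transcripts were listed only from a coverage of 2.50 up, so a gene without one may still have had reads there. The 6 are CPE, SPARC, ATP6V1C1, EIF4G2, PVALB and UBE2K. With these counted as listed in both, 80 genes were shared. Their ratios set transcripts of different length against each other, and on aligned bases per megabase, which is not divided by length, CPE moved from 1.98 to 0.45, within 2-fold. SPARC moved from 2.53 to 1.45 and PVALB from -3.61 to -1.04, and EIF4G2 (-3.06 and -2.79) and UBE2K (-2.83 and -2.47) changed little, so these 4 stayed past 2-fold. ATP6V1C1 stood at -0.09 in FPKM and 1.05 on aligned bases. By the same listing limit, the level of an unnamed transcript could not be low. That limit sets part of the size of these joined ratios, and no difference between the libraries is read from them.

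Most genes of the pair, shared or not, were not listed in the short-day libraries. Neither short-day library listed 60 of the 74 shared genes. SD hypothalamus listed 9 of the 74 and SD liver 9, of which 4 were in both. A short-day library thus listed 14 of the 74, beside 5 of the 52 genes of LD hypothalamus alone and 21 of the 109 of LD liver alone. LD hypothalamus shared 58.7% of its named genes with LD liver and 7.94% with SD hypothalamus, while LD liver shared 40.4% with LD hypothalamus and 12.6% with SD liver. The short-day lists are short, at 34 and 62 genes, and of SD hypothalamus 29.4% was shared with LD hypothalamus and 64.7% with LD liver. Of SD liver, 22.6% was shared with LD hypothalamus and 37.1% with LD liver. Genes that carry an identifier and no symbol add 24 shared features, 4 at least 2-fold higher and 3 lower in LD liver, with a median ratio of -0.02.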

How the data were processed

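Per the labels' protocols, libraries of total RNA were read by pyrosequencing. The deposited files are 1 transcript assembly per library. StringTie 1.3.3b built them from trimmed alignments, per the file headers, with Ensembl 89 gene models of another songbird, the collared flycatcher (build FicAlb_1.4), as guide. The aligner is not given in the sources used here. Bunting reads that differ from the flycatcher sequence may be lost. The deposited coverage and FPKM per transcript, made by the authors, were summed per gene symbol, coverage after multiplication by exon length (aligned bases). The score column of the deposited files was not used.

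Assembled transcripts carry no symbol and were listed from a coverage of 2.50 up, while reference transcripts appear at any coverage. Ratios used FPKM plus a pseudocount of 1, and a gene was called at 2-fold. With 1 library per group no test was made. Correlations were computed with scipy 1.17.1. Unnamed transcripts that shared 1 base or more with a gene's exons and did not lie on its opposite strand were joined as an alternative chosen after seeing the data. Whether libraries kept the strand is not stated.

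The members, lists and rules were chosen with earlier results of these data known, and the 15 functional classes were assigned after the symbols and values were seen. Genes were named by a rule: the 15 highest and 15 lowest ratios, the 15 genes of highest FPKM per library, the 20 of highest FPKM listed in one library only, members of 27 lists, and leading members of 8 families. Other named genes were picked with their values in view. The reader was tested on a copy of LD liver in which the values of 60 genes were multiplied by known folds, and 60 of 60 were recovered. No reads, depth or listing limit were simulated, so this checks only that values are read and summed correctly. Some genes that the rule names are not reported here. No sequence is printed, since no reference was used here.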

Additional observations from a re-analysis of the deposited data

Results flagged for a closer look

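Among the 4 genes listed in all libraries, EIF4A2 and SLC25A6 had ratios of liver over hypothalamus of opposite sign under the 2 season labels. EIF4A2 stood at 0.12 in the long-day pair and -0.91 in the short-day pair, with 271 and 144 FPKM in SD hypothalamus and SD liver. SLC25A6 stood at -0.10 and 1.17, with 32.5 and 74.6 FPKM. The median ratio over shared genes was 0.09 in the long-day pair (74 genes) and -0.82 in the short-day pair (13 genes), so EIF4A2 lay near the median of each pair. These pairs follow the titles only. The recorded seasonal state of LD hypothalamus and of SD liver goes against their titles, and the marker genes go against the label LD liver. No effect of tissue or season is therefore read from these ratios. With 1 library per group the differences were not tested.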

How the results depend on the processing

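No paired analysis was possible because each group has 1 library, and no library could be left out. Of the calls, 12 genes higher and 11 lower, a pseudocount of 10 left 5 and 8. Requiring 150 aligned bases in both libraries left 9 and 5. A threshold of 1.5-fold gave 22 and 19, and a threshold of 3-fold gave 5 and 5. Under the other alternatives (no pseudocount, aligned bases, TPM, common transcripts, centring on the median, identifier-only genes, unnamed transcripts added) the counts were 9 to 16 higher and 10 to 14 lower. Among these 9 alternatives to the FPKM setting, no called gene changed sign. A pseudocount of 10 lost 10 calls (among them FEM1A, GPER1, GPR22, GPR85, NAA30, OMG, PAIP2, RAP2A, SLITRK1), centring lost 3 and gained 1, and adding unnamed transcripts lost CKB and gained CALM3. The median ratio ran from 0.04 to 0.14, apart from centring, which sets it to 0. The Spearman correlation was 0.76 with either pseudocount, TPM or centring, which cannot change the order of genes within a library. Over the other alternatives it was 0.73 to 0.85. It was 0.021 over the 235 genes listed in either library with unlisted genes at 0, a setting that treats missing genes as measured. At a median coverage below 1, the low depth limits what any single ratio shows.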
